A study of Mus musculus with 6 samples.

Results

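Hepatic stellate cells and portal fibroblasts are the matrix-producing mesenchymal cells of the liver, and 10 genes known from them were examined here: Lum, Pdgfra, Pdgfrb, Cygb, Dcn, Lrat, Reln, Des, Acta2 and Thbs2. They were chosen by symbol. All 10 were found among the 50600 genes of the deposited tables, and all 10 passed the filter on low counts that left 14314 genes. RNA of whole liver, 1 month after birth, was sequenced from 3 samples of genotype Dicerloxp/loxp;Alb-cre (Dicer LKO) and 3 samples of genotype Dicerloxp/loxp (control), all of strain C57BL/6. Both groups thus carry the loxP-flanked Dicer alleles, and the Cre recombinase is the difference between them. The albumin promoter that drives Cre is known for its activity in hepatocytes, so the recombinase is not aimed at the stellate cells whose genes are described. The series text calls the controls wild type, while the genotype label gives loxP-flanked alleles. Nothing in the labels shows that the samples are separate animals. The p-values therefore set the difference between the groups against the spread among these samples only, part of which may be technical.

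As background, a quiescent stellate cell lies between the sinusoidal endothelium and the hepatocytes and stores retinoid in lipid droplets. After liver injury it loses the retinoid, divides in response to platelet-derived growth factor (PDGF), and becomes a myofibroblast that makes contractile actin and fibrous matrix under transforming growth factor beta (TGF-beta). Lrat, Reln and Cygb are used as markers of the quiescent cell, and Lum, Thbs2 and Acta2 as markers of activation.

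In the livers with deleted Dicer, the receptor gene Pdgfra, the matrix genes Lum and Thbs2, and the stellate cell globin gene Cygb rose. The quiescent markers Lrat and Reln and the myofibroblast actin gene Acta2 were not called. Of the 10 genes, 4 were called higher and 0 lower by edgeR's quasi-likelihood test (Benjamini-Hochberg adjusted p under 0.05 over all genes tested), where 0.741% of all genes tested were called higher and 0.552% lower. In 6 of the 10 genes every Dicer LKO library lay above every control in CPM (counts scaled to a common library size with TMM factors), and 12.7% of all genes tested did so. So did 6 of 10 macrophage markers and 6 of 10 endothelial markers. Of the 10 genes 0 lay wholly below, as 15.4% of all genes did. The median log2 fold change of the 10 genes was 0.82, and that of all genes tested was -0.01. The members were known from earlier results of these data, so these counts are a description.

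The libraries held 14141954 to 25049753 counts, with control replicate 3 the shallowest. That library also had the largest share of counts in mitochondrially encoded genes, 10.2%, against 4.62% to 6.46% in the others. Dicer1, the deleted gene, had 28.9, 31.2 and 24.4 CPM with Cre, against 42.5, 69.3 and 56.1 CPM in controls. It lay wholly below the controls, as 15.4% of all genes tested did. Its log2 fold change was -0.99 (SE 0.20, adjusted p = 0.0622, edgeR), and it was not called. Control replicate 3 held transcripts of skeletal muscle: 20 of 20 skeletal muscle markers were above 0, with a summed 1507 TPM (transcript level per length, scaled to the same total in each library), against 11.8 to 12.7 TPM in Dicer LKO and 18.9 and 19.1 TPM in the other two controls. Acta1 was at 255 TPM and Tnnt3 at 203 TPM there, and at 0.16 TPM or less in each other library. In those other libraries most of the sum was Neb, at 8.45 to 10.35 TPM in Dicer LKO and 14.57 and 16.38 TPM in control replicates 1 and 2. A trace of heart muscle split the libraries in another way. Nppa and Myl2 were listed at 0 in Dicer LKO replicates 1 and 2, while Nppa was at 3.94 TPM in Dicer LKO replicate 3 and at 4.2 to 5.6 TPM in the controls. Values without control replicate 3 are given for all 10 genes, beside the result or in the plot of fold changes, and for those other genes where they bear on a call.

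Promoters of 3 genes are shown for comparison, Pdgfra and Thbs2, which rose, and Acta2, which was not called. RefSeq (GRCm38.p6) held promoters for 6 of the 10 genes. The windows run from 250 bases before to 50 bases after the annotated start, at chr5:75152001-75152300 (plus strand) for Pdgfra, chr17:14694213-14694512 (minus strand) for Thbs2 and chr19:34255324-34255623 (minus strand) for Acta2. Capitals mark matches, on either strand, to TATAAA, to GGAATG (the core bound by TEAD factors) and to the CArG box of serum response factor with at most 1 base other than A or T in its core.
Pdgfra: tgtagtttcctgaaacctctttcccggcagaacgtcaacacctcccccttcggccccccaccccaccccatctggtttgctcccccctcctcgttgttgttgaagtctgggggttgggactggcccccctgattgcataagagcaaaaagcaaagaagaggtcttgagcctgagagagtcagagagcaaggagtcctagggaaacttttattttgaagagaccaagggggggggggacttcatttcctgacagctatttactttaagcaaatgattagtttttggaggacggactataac
Thbs2: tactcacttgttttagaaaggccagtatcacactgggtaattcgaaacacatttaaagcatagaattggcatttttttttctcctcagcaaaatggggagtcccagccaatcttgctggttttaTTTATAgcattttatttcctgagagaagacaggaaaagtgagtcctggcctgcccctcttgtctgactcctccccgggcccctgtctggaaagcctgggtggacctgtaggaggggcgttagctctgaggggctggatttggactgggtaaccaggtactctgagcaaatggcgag
Acta2: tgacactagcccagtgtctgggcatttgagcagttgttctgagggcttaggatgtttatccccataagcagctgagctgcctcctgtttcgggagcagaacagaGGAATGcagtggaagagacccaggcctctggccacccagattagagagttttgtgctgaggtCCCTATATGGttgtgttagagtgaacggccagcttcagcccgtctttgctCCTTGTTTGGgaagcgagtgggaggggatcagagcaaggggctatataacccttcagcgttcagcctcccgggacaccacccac
The Acta2 window held a GGAATG at positions -146 to -141 and CArG boxes at -84 to -75 and -34 to -25, counted from the start. The Thbs2 window held a TATAAA on the opposite strand at -126 to -121, and the Pdgfra window held none of the 3 motifs. In windows not shown, of genes not called, Lrat held a GGAATG at -208 to -203 and a CArG box at -223 to -214. Des and Reln held none of the 3 motifs. GGAATG occurs in 14.7%, the CArG box in 9.98% and TATAAA in 13.6% of all 32851 RefSeq promoter windows of this length. A match describes the letters only. The motifs do not overlap one another in these windows.

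The genes lie as follows in GENCODE M21 (GRCm38), to which 99.56% of the gene identifiers matched. Pdgfra (ENSMUSG00000029231.15) spans 75152292 to 75198215 on chromosome 5, plus strand, and Pdgfrb (ENSMUSG00000024620.11) is on chromosome 18. Dcn (ENSMUSG00000019929.16, 97479609 to 97518143) and Lum (ENSMUSG00000036446.5, 97565128 to 97572703) are neighbours on the plus strand of chromosome 10, followed by the related genes Kera and Epyc. Thbs2 (ENSMUSG00000023885.8) spans 14665500 to 14694235 on chromosome 17, and Acta2 (ENSMUSG00000035783.8) 34241090 to 34255590 on chromosome 19, both on the minus strand. Lrat (ENSMUSG00000028003.6) spans 82892579 to 82903973 on chromosome 3, Reln (ENSMUSG00000042453.14) 21884454 to 22344702 on chromosome 5 and Cygb (ENSMUSG00000020810.5) 116645595 to 116654313 on chromosome 11, all on the minus strand. Des (ENSMUSG00000026208.9) spans 75360329 to 75368579 on the plus strand of chromosome 1. All counts cover the whole gene. Exons of Pdgfra, Cygb, Reln and Des overlap genes on the opposite strand, and the strand setting is not given in the sources used here. Those partners with exonic overlap had at most 2 counts in any library (Gm42802, Gm42803, Prcd, Gm10475 and Gm15179). On the same strand, 30 bases of Pdgfra exons overlap the miRNA gene Mir7025, which had 0 counts in all 6 libraries.

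The receptors come first. Pdgfra, a receptor tyrosine kinase for PDGF on fibroblasts and stellate cells, had 32.2, 33.9 and 39.5 CPM with Cre, that is in Dicer LKO, against 12.3, 13.8 and 14.98 CPM in the controls. The lowest Dicer LKO library was more than 2 times the highest control. The means were 35.2 ± 3.82 and 13.7 ± 1.34 CPM (SD, n = 3 each), and the log2 fold change was 1.36 (SE 0.14, adjusted p = 0.0148, edgeR). The call was kept without each library in turn, the log2 fold change then being 1.28 to 1.45. In whole liver, fewer or more cells of a type and less or more RNA per cell cannot be told apart, here and in all results that follow.

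Pdgfrb, the receptor for the B and D forms of PDGF and the usual mark of stellate cells and pericytes, was at 19.0, 21.9 and 21.4 CPM in Dicer LKO, against 8.92, 13.4 and 13.7 CPM in the controls. The groups did not overlap, but the spread among controls was wider than for Pdgfra. The log2 fold change of 0.79 (SE 0.19) missed the threshold with an adjusted p of 0.0812 (edgeR), and its 95% interval was 0.36 to 1.22. Without control replicate 3 it was 0.91 (adjusted p = 0.142). Per length, the level of Pdgfra relative to Pdgfrb was 1.40, 1.37 and 1.58 in Dicer LKO and 1.15, 0.95 and 0.899 in the controls (ratio of TPM). The ratio was higher in all 3 Dicer LKO libraries, and Pdgfra exceeded Pdgfrb in 1 of 3 controls. This difference was not tested, because the members were chosen with results known.

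Of the PDGF ligands, 1 of 4 tested was called. Pdgfd, the ligand that signals through Pdgfrb, was at 3.94, 3.81 and 6.89 CPM in Dicer LKO, against 1.76, 1.34 and 1.47 CPM in the controls, and rose by 1.68 on the log2 scale (SE 0.30, adjusted p = 0.0489, edgeR). The call was lost without control replicate 3 (adjusted p = 0.128), where the log2 fold change was 1.68 too. Pdgfa, a ligand of Pdgfra, was at 3.17 ± 0.34 CPM in Dicer LKO and 4.47 ± 1.14 CPM in controls (SD, n = 3 each, adjusted p = 0.297, edgeR), and Pdgfc had a log2 fold change of 0.38 (adjusted p = 0.605).

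**Figure D1:**
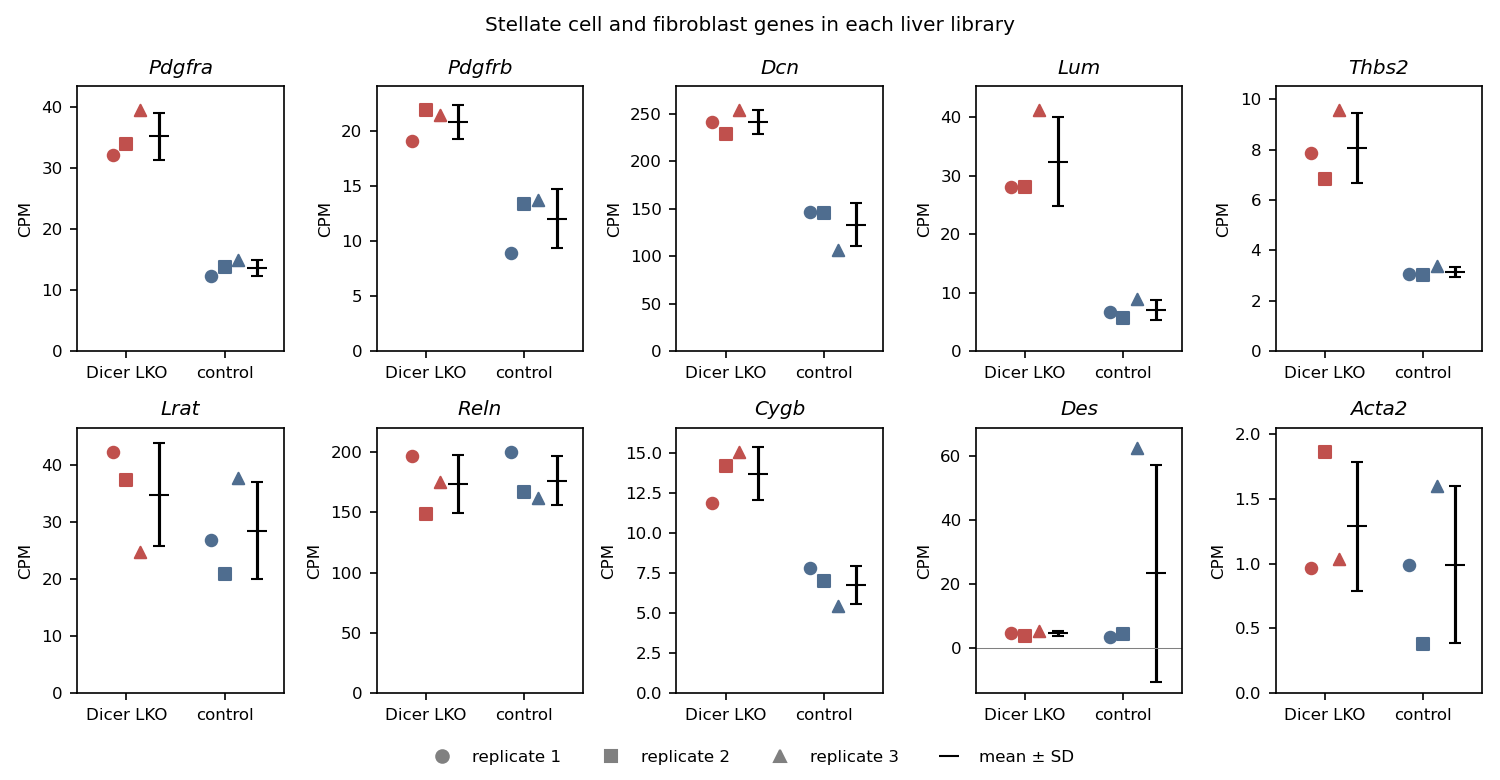
CPM of each of the 10 genes in each library (points, one marker shape per replicate) with the mean and SD of each group (black), Dicer LKO on the left and control on the right of each panel, on linear axes. In Pdgfra, Pdgfrb, Dcn, Lum, Thbs2 and Cygb the 3 Dicer LKO points lie above the 3 control points, while in Des the third control stands apart at 62.5 CPM.

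Among the secreted matrix genes were Dcn, with the highest level per length (TPM) of the 10, and the one with the largest called change, Lum. Lum encodes lumican, a small leucine-rich proteoglycan that binds collagen fibrils. Its level was 28.0, 28.0 and 41.2 CPM in Dicer LKO, against 6.67, 5.67 and 8.99 CPM in the controls. Dicer LKO replicate 3 was the highest, and even the lowest Dicer LKO library was above 3 times the highest control. Lum averaged 32.4 ± 7.63 CPM in Dicer LKO and 7.11 ± 1.70 CPM in controls (SD, n = 3 each), and rose by 2.19 on the log2 scale (SE 0.23, adjusted p = 0.0148, edgeR). It was called without each library in turn, with log2 fold changes of 1.99 to 2.42.

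Dcn, which encodes decorin, the close relative of lumican that binds collagen and TGF-beta, had the highest level per length (TPM) of the 10 genes in every library. Dicer LKO libraries held 241, 228 and 254 CPM of it, against 147, 146 and 107 CPM for controls. The groups did not overlap. The log2 fold change of 0.86 (SE 0.17, 95% interval 0.45 to 1.26) had an adjusted p of 0.0633 (edgeR) and was not called, and without control replicate 3 it was 0.74 (adjusted p = 0.119). Per length, Lum stood at 0.0802, 0.0853 and 0.113 of the Dcn level in Dicer LKO and at 0.0317, 0.0271 and 0.0587 in the controls, so that the share was higher in all 3 Dicer LKO libraries. Control replicate 3, with its muscle transcripts, had the highest share of the controls. The 2 genes behind Lum on chromosome 10, Kera and Epyc, were listed at 0 TPM in all 6 libraries.

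Thbs2, which encodes thrombospondin 2, a matricellular protein of fibroblasts, was at 7.84, 6.81 and 9.56 CPM in Dicer LKO, against 3.06, 3.03 and 3.38 CPM in the controls. The groups did not overlap, and the controls lay close together. Thbs2 rose by 1.36 on the log2 scale (SE 0.20, adjusted p = 0.0298, edgeR). The call was lost without Dicer LKO replicate 1 (adjusted p = 0.102) or 3 (0.117) and without control replicate 2 (0.0724) or 3 (0.072), at log2 fold changes of 1.22 to 1.43.

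Relatives of these matrix genes did not share one direction. Among the other thrombospondins, 2 of 4 passed the filter and 0 were called. Thbs1, which can activate latent TGF-beta, was at 7.15 ± 1.25 CPM in Dicer LKO and 2.28 ± 1.16 CPM in controls (SD, n = 3 each, log2 fold change 1.66, adjusted p = 0.0833, edgeR), and Thbs3 had a log2 fold change of 1.18 (adjusted p = 0.171). Of 7 tested small leucine-rich proteoglycans other than Lum and Dcn, 0 were called, and their median log2 fold change was 0.24. Bgn, which encodes biglycan, was at 46.4 ± 4.29 CPM in Dicer LKO and 50.8 ± 9.39 CPM in controls (adjusted p = 0.700, edgeR), and Prelp at 27.1 ± 1.86 CPM in Dicer LKO and 30.6 ± 8.10 CPM in controls (adjusted p = 0.661). That Lum differed from its relatives was not tested.

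The markers of quiescent stellate cells fell into those that rose and those that were not called. Cygb encodes cytoglobin, an oxygen-binding globin that marks stellate cells in the liver. It was at 11.9, 14.2 and 15.1 CPM in Dicer LKO, against 7.84, 7.01 and 5.48 CPM in the controls, with no overlap. It rose by 1.01 on the log2 scale (SE 0.18), with an adjusted p of 0.0481 (edgeR) close to the threshold. That call was lost without any 1 library other than control replicate 1, with adjusted p-values of 0.0867 to 0.164 and log2 fold changes of 0.91 to 1.11.

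Lrat encodes lecithin retinol acyltransferase, the enzyme that makes the retinyl esters stored in stellate cells. It was at 42.3, 37.4 and 24.8 CPM in Dicer LKO, against 26.9, 21.0 and 37.7 CPM in the controls. The groups overlapped, with Dicer LKO replicate 3 below 2 of the controls. The log2 fold change was 0.29 (95% interval -0.33 to 0.91, adjusted p = 0.580, edgeR), and 0.57 without control replicate 3 (adjusted p = 0.325).

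Reln encodes reelin, a large secreted glycoprotein best known from brain layering and made in the liver by stellate cells. Dicer LKO libraries held 196, 148 and 175 CPM of it, against 200, 167 and 162 CPM for controls. The groups overlapped almost wholly, and the log2 fold change was -0.02 (95% interval -0.42 to 0.37, adjusted p = 0.952, edgeR), and -0.06 without control replicate 3 (adjusted p = 0.912). In deposited TPM the same gene was at 18.6, 13.8 and 17.6 in Dicer LKO and at 21.3, 19.8 and 20.4 in the controls, without overlap. The effective length that enters TPM was 7132, 6743 and 6966 bases in Dicer LKO and 6830, 5878 and 5972 bases in the controls. Neither unit gave a call (adjusted p = 0.300 by limma on log2(TPM + 1)).

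The contractile and filament genes are shared with muscle. Des encodes desmin, the intermediate filament of muscle that also marks stellate cells in rodents. It was at 4.86, 3.76 and 5.34 CPM in Dicer LKO and at 3.43, 4.32 and 62.5 CPM for controls. Control replicate 3, the library with skeletal muscle transcripts, stood far above the other 5. The log2 fold change was -2.32 (SE 1.23, adjusted p = 0.353, edgeR), and without control replicate 3 it was 0.29 (adjusted p = 0.611), in the other direction.

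Acta2 encodes smooth muscle alpha actin, the standard myofibroblast marker, which vascular smooth muscle makes too. It was the scarcest of the genes in Dicer LKO, with 21, 39 and 26 counts (0.963, 1.86 and 1.04 CPM), against 22, 8 and 25 counts (0.992, 0.384 and 1.59 CPM) in the controls. The groups overlapped. The 8 counts of control replicate 2 have an exact 95% interval of 3.45 to 15.8 counts, for counting error only, and the 39 counts of Dicer LKO replicate 2 one of 27.7 to 53.3. The log2 fold change of 0.40 had a 95% interval of -0.80 to 1.59 (adjusted p = 0.707, edgeR), so a 2-fold rise lay inside the interval. Without control replicate 3 the value was 0.91 (adjusted p = 0.447). Smooth muscle markers, of which 0 of 7 tested were called, summed to 12.1 to 14.5 TPM in Dicer LKO and to 16.7, 17.6 and 35.0 TPM in the controls. Mylk was the largest part in each library, at 7.88 to 8.97 TPM in Dicer LKO and 11.04 to 16.64 TPM in controls. Control replicate 3 also held 10.14 TPM of Hspb6 and 2.45 TPM of Synpo2, against at most 1.96 and 0.21 TPM in each other library. Myh11 was at 0.53 TPM in control replicate 3, against at most 0.3 TPM elsewhere. Tagln in that control lay below the 2.48 TPM of Dicer LKO replicate 3. The part of smooth muscle in the Acta2 values was not tested.

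**Figure D2:**
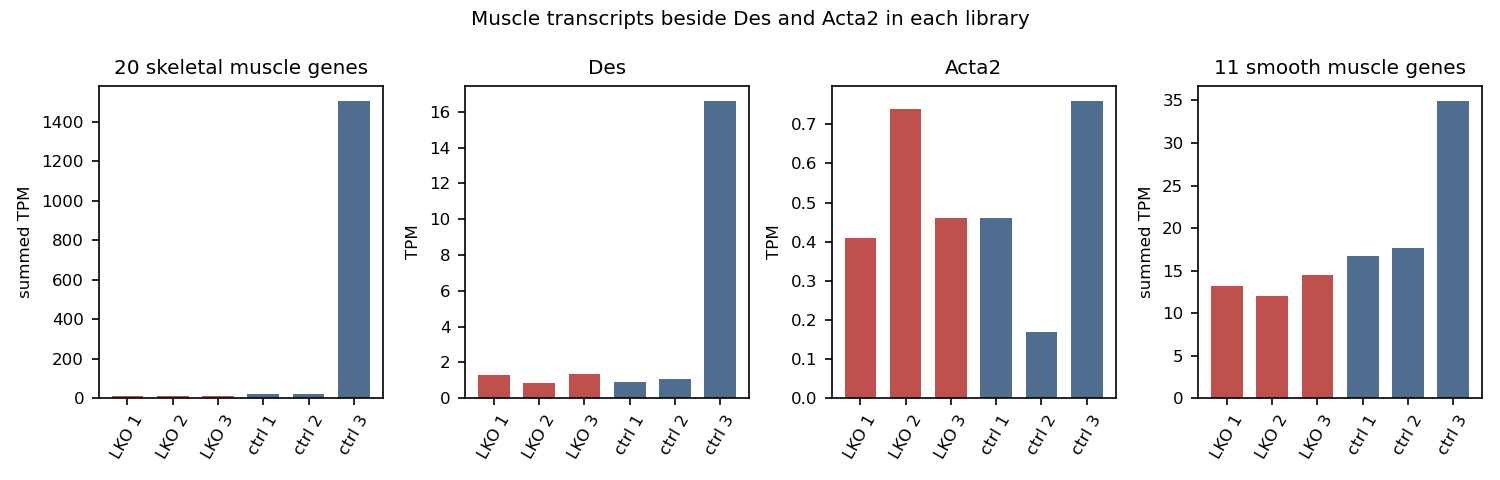
Summed TPM of 20 skeletal muscle markers, TPM of Des, TPM of Acta2 and summed TPM of 11 smooth muscle markers in each library, with the Dicer LKO libraries (LKO, red) left of the controls (ctrl, blue). Control replicate 3 holds 1507 TPM of skeletal muscle markers and 16.6 TPM of Des, while its Acta2 level of 0.76 TPM is close to the 0.74 TPM of Dicer LKO replicate 2.

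Across the 10 genes, the levels per length kept much of their order. Dcn was the highest and Reln the second in all 6 libraries, and Thbs2 and Acta2 were the lowest 2. Lum was the third in each Dicer LKO library at 8.45, 7.85 and 12.9 TPM. In the controls the third was Lrat in replicates 1 and 2 and Des in replicate 3, and Lum was at 2.17, 1.76 and 3.01 TPM. The 10 genes summed to 150, 131 and 164 TPM in Dicer LKO and to 103, 96.9 and 104 TPM in the controls. Without Acta2 and Des the sums were 149, 130 and 162 TPM in Dicer LKO and 102, 95.6 and 86.4 TPM in the controls. The Dicer LKO mean sum over those 8 genes was 1.55 times the control mean, and Dcn made up most of it.

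Activation and quiescence markers were also set against each other within each library. The mean log2 CPM of Lum, Thbs2 and Acta2 minus that of Lrat, Reln and Cygb was -2.94, -2.59 and -2.43 in Dicer LKO and -3.66, -3.92 and -3.14 in the controls. All Dicer LKO libraries were higher, by 0.92 on average. Without Acta2 the difference was 1.33, and on log2(TPM + 1) it was 0.57. The Lum level per Reln level was 0.455, 0.568 and 0.732 in Dicer LKO and 0.102, 0.0888 and 0.147 in the controls (ratio of TPM). These scores are descriptions with no p-value, since the genes were chosen with results known.

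**Figure D3:**
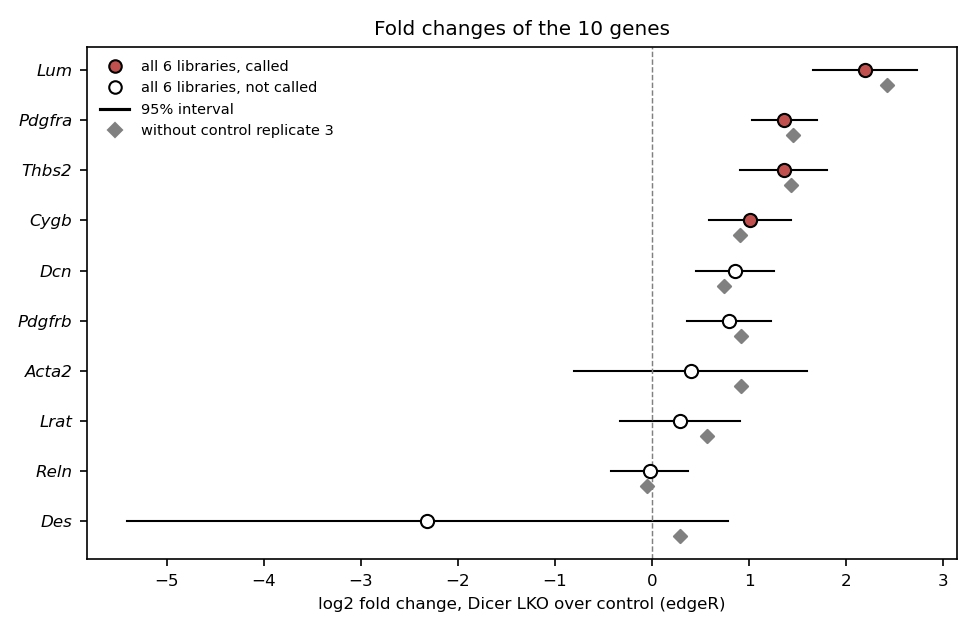
Log2 fold changes of Dicer LKO over control from edgeR for the 10 genes, with 95% intervals from all 6 libraries (circles, red where called) and the value without control replicate 3 (grey diamonds). Lum, Pdgfra, Thbs2 and Cygb are called, and Des moves to 0.29 without control replicate 3 while the other 9 genes keep their sign.

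Of the 4 calls, those of Lum and Pdgfra were kept with any 1 library left out, and those of Cygb and Thbs2 were not. Without control replicate 3, the calls among the 10 genes were those of Lum (2.42, adjusted p = 0.0410, edgeR) and Pdgfra (1.45, adjusted p = 0.0411), where 0.102% of all genes tested were called higher. Leaving out Dicer LKO replicate 1 left 2 calls (0.217% of all genes called higher), replicate 2 left 3 (0.46%) and replicate 3 left 2 (0.164%). Leaving out control replicate 1 left 4 calls (0.513%) and control replicate 2 left 2 (0.285%). With a term for the libraries with heart muscle transcripts, which sets Dicer LKO replicate 3 alone against the controls and assumes that this library varies like the others, 2 genes passed the threshold, Lum at 2.54 (adjusted p = 0.0237, edgeR) and Pdgfra at 1.53 (adjusted p = 0.0376), where 0.258% of all genes were called higher. DESeq2 called 6 of the 10 (3.42% of all genes called higher), adding Dcn (adjusted p = 0.000188) and Pdgfrb (0.0136), and so did edgeR without a filter (0.875%). Library totals gave 2 calls (0.349%), limma on log2(TPM + 1) 2 (0.321%) and the fit with the replicate number as a block 3 (1.04%).

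Other genes known from stellate cells showed both directions. Of 24 listed, 22 passed the filter, 1 was called higher and 0 lower, 11 had positive and 11 negative values, and the median log2 fold change was 0.03. In CPM, 7 of the 22 lay wholly above the controls and 3 wholly below, against 12.7% and 15.4% of all genes tested. Gdf2, the circulating growth factor BMP9 made by stellate cells, was at 30.3, 31.1 and 30.4 CPM in Dicer LKO, against 19.3, 19.0 and 17.2 CPM in the controls. The replicates of each group lay close together, and it rose by 0.72 on the log2 scale (SE 0.12, adjusted p = 0.0414, edgeR), a call lost without control replicate 3 (adjusted p = 0.0951). Ecm1, an extracellular matrix protein gene, was at 34.5 ± 5.74 CPM in Dicer LKO and 50.4 ± 7.70 CPM in controls (SD, n = 3 each, log2 fold change -0.55, adjusted p = 0.139, edgeR). Every Dicer LKO library lay below every control for Ecm1. The chemokine gene Cxcl12 was at 251 ± 22.5 CPM in Dicer LKO and 236 ± 20.3 CPM in controls (adjusted p = 0.795). Hgf, the hepatocyte growth factor gene, was at 69.3, 52.5 and 43.3 CPM in Dicer LKO and at 31.6, 29.2 and 23.8 CPM in controls, without overlap, and missed the threshold (0.96, adjusted p = 0.0636, edgeR; 0.88 and 0.149 without control replicate 3).

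Genes of retinoid uptake, storage and breakdown gave 0 calls among 14 tested, with a median log2 fold change of -0.21. Rbp4, the carrier of retinol in plasma, was at 1000 ± 212 CPM in Dicer LKO and 1198 ± 147 CPM in controls (SD, n = 3 each, adjusted p = 0.569, edgeR), and Aldh1a1, a retinaldehyde dehydrogenase gene, at 658 ± 144 CPM in Dicer LKO and 865 ± 108 CPM in controls (adjusted p = 0.375).

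Of 22 tested genes known to rise in myofibroblasts, 0 were called with all libraries. Values were positive in 16 and negative in 6, and the median log2 fold change was 0.61. Among the negative values were those of Col5a1 (-0.47, adjusted p = 0.355, edgeR), Tnc (-0.43, adjusted p = 0.419) and Postn (-0.43, adjusted p = 0.437). Without control replicate 3 the median was 0.87 and Mmp2, a matrix metalloproteinase gene, was called (2.54, adjusted p = 0.0417, edgeR). Mmp2 was at 5.14, 7.86 and 7.01 CPM in Dicer LKO and at 1.26, 1.06 and 4.27 CPM among controls, the highest control being replicate 3. Control replicate 3 was also the highest control for Col1a1, a fibrillar collagen gene, and the lowest for Col5a2, another. Col1a1 was at 4.54, 5.29 and 7.05 CPM in Dicer LKO and at 2.07, 2.88 and 6.70 CPM in the controls (log2 fold change 0.55, adjusted p = 0.503, edgeR), and 1.20 without control replicate 3 (adjusted p = 0.149). Ctgf, a connective tissue growth factor gene, was at 12.3, 16.6 and 22.9 CPM in Dicer LKO and at 4.96, 8.45 and 4.72 CPM in controls, and missed the threshold (1.51, adjusted p = 0.0633, edgeR), with a value of 1.39 without control replicate 3 (adjusted p = 0.164). Fn1, the fibronectin gene that hepatocytes express as well, was at 2043 ± 533 CPM in Dicer LKO and 2415 ± 845 CPM in controls (SD, n = 3 each, adjusted p = 0.711).

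In the TGF-beta pathway, 1 of 14 tested genes was called, and the median log2 fold change was -0.01. Ltbp1, which holds latent TGF-beta in the matrix, was at 9.173, 10.10 and 9.999 CPM in Dicer LKO, against 4.51, 4.47 and 5.48 CPM in the controls, and rose by 1.02 on the log2 scale (SE 0.16, adjusted p = 0.0374, edgeR). Without control replicate 3 its value was 1.14 (adjusted p = 0.0634). The ligand gene Tgfb1 was at 4.98 ± 1.34 CPM in Dicer LKO and 5.37 ± 1.16 CPM in controls (SD, n = 3 each, adjusted p = 0.855). The receptor gene Tgfbr1 had a log2 fold change of 0.54 (adjusted p = 0.205), and the signal transducer gene Smad4 one of -0.30 (adjusted p = 0.198).

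Portal fibroblast genes gave 0 calls among 9 tested of 13 listed, with a median of 0.78, and of 1.70 without control replicate 3. The latter is the value of Fbln1 (adjusted p = 0.210, edgeR), which had 10 and 8 counts in control replicates 1 and 2. Eln was as scarce there, with 10 and 12 counts, so few counts limit this median. Dpt, which encodes the matrix protein dermatopontin, was at 4.17, 6.05 and 5.30 CPM in Dicer LKO and at 1.44, 0.961 and 3.25 CPM in the controls (1.48, adjusted p = 0.117, edgeR), and the value was 2.12 without control replicate 3 (adjusted p = 0.0634). Col15a1, a collagen gene, was at 11.3 ± 3.03 CPM in Dicer LKO and 12.4 ± 5.24 CPM in controls (SD, n = 3 each, adjusted p = 0.863). Clec3b, Mfap5 and Pi16, known from fibroblasts of many tissues, were at 0.97, 1.22 and 0.86 TPM in control replicate 3 and at 0.28 TPM or less in each other library. In CPM that control was also the highest control for Lum, Pdgfra and Thbs2, and the lowest for Dcn and Cygb. Whether fibroblasts came with the muscle, and their part in these values, was not tested. The fold changes of Lum, Pdgfra and Thbs2 were larger without this library. Those of Dcn and Cygb were smaller, with log2 fold changes of 0.74 and 0.91.

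**Figure D4:**
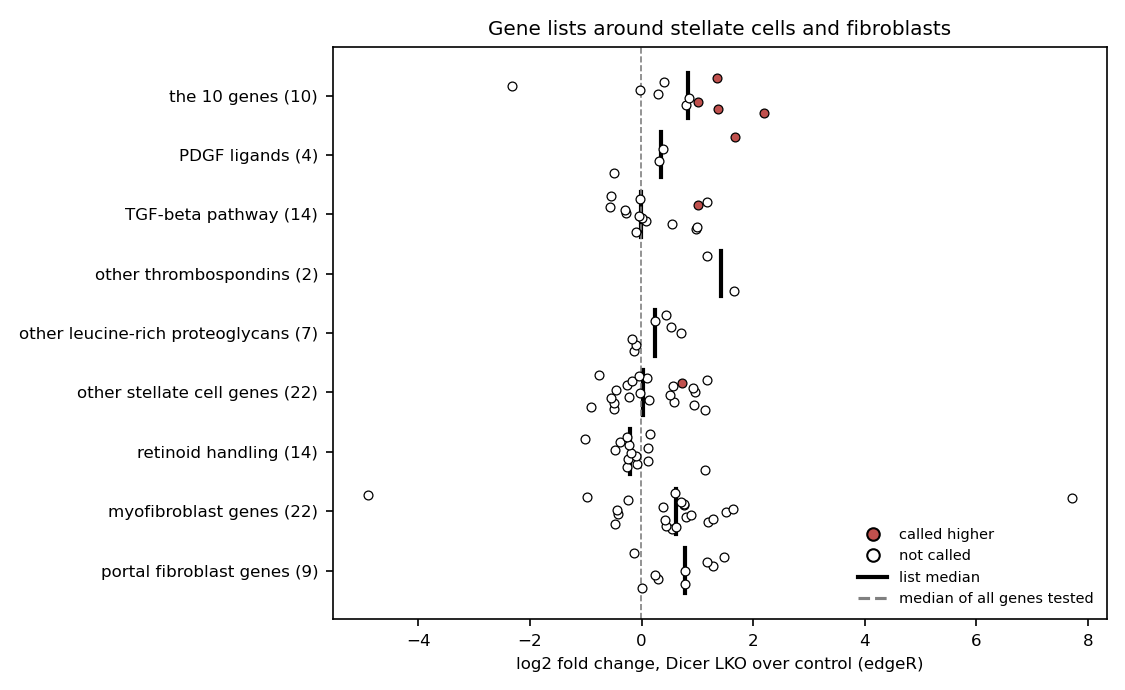
Log2 fold changes of Dicer LKO over control (edgeR) for the tested genes of each list, with the number tested in brackets, red where called higher, the list median as a black bar and the median of all genes tested as a dashed line. The medians are 0.82 for the 10 genes, 0.78 for portal fibroblast genes, 0.61 for myofibroblast genes, 0.03 for other stellate cell genes and -0.21 for retinoid handling.

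Markers of other cell types were summed in each library. Bile duct markers (7 of 7 above 0 in every library) summed to 76.6, 90.1 and 153 TPM in Dicer LKO, against 20.7, 27.3 and 19.5 TPM in the controls, with 3 of 7 called higher and a median log2 fold change of 2.30. Most of that sum was Spp1, the osteopontin gene, at 71.2, 86.0 and 145 TPM in Dicer LKO, against 18.3, 23.6 and 14.9 TPM in the controls. Macrophage markers (10 of 10 above 0) summed to 196 to 244 TPM in Dicer LKO and to 99.3 to 201 TPM in the controls, with 0 called and a median log2 fold change of 0.80, the most abundant being the complement gene C1qa (log2 fold change 0.84, adjusted p = 0.105, edgeR). Endothelial markers (10 of 10 above 0) summed to 116 to 120 TPM in Dicer LKO and to 86.3 to 104 TPM in the controls, with 1 called, Vwf, while the most abundant, Clec4g, had a log2 fold change of 0.68 (adjusted p = 0.115, edgeR). Mesothelial markers, which can hold Dcn and Lum transcripts too, summed to 0.54 to 1.73 TPM in Dicer LKO and to 0.31 to 2.28 TPM in the controls, with Msln listed at 0 in replicate 2 of each group. Hepatocyte markers gave 0 calls among 8, Alb having a log2 fold change of 0.50 (adjusted p = 0.476, edgeR). In CPM, 5 of 7 bile duct, 6 of 10 macrophage and 6 of 10 endothelial markers lay wholly above the controls, where 12.7% of all genes tested did. Of the hepatocyte markers 0 of 8 did so, and 1 endothelial marker lay wholly below. None of the 4 calls among these markers was kept without control replicate 3. The part of these cells in the rise of Lum, Pdgfra, Thbs2 and Cygb was not tested.

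The genes whose pattern was most like that of the 8 members other than Acta2 and Des were sought among 10764 genes by Pearson correlation of log2 CPM over the 6 libraries. As the 6 libraries form 2 groups, likeness mostly reflects a difference between the groups and is a description. The closest were Cyp1b1 (0.993), Commd4 (0.985), Sowahc (0.983), Cyp3a41a (0.982) and Lhfp (0.980). Cyp1b1, a cytochrome P450 gene, was at 3.99, 3.72 and 4.74 CPM in Dicer LKO, against 1.04, 0.768 and 0.893 CPM in the controls, a log2 fold change of 2.20 (SE 0.25, adjusted p = 0.0149, edgeR) about as large as that of Lum. Lhfp was at 14.8 ± 2.01 CPM in Dicer LKO and 7.75 ± 0.73 CPM in controls (SD, n = 3 each), and Cyp3a41a had 83, 58 and 344 counts in Dicer LKO and 0 counts in each control.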

How the data were processed

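The 6 deposited tables, 1 per sample, hold, per the file headers, columns named as RSEM names them, namely an expected count for each gene and a TPM value that the authors scaled by effective length. CASAVA and Bowtie were used, per the submitters' processing notes, which name hg19, a human build, although the gene identifiers are mouse. Neither counting program, mouse annotation nor strand setting is given in the sources used here. Frozen liver was lysed in Trizol for RNA, per the labels' protocols. The series table was not used.

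Expected counts were rounded (96.0% to 96.5% were whole already). After filterByExpr and TMM scaling, genes entered the test of edgeR 4.0.16 (R 4.3.3; quasi-likelihood, robust, genotype as the only term), with p-values adjusted over all 14314 genes tested by Benjamini-Hochberg. Standard errors (SE) were taken as the absolute log2 fold change over the root of F, and 95% intervals use its t quantile. The procedure was tested on simulated data. Exact permutation tests planned for scores over the members are not reported, because the members and lists were chosen with earlier results of these data known. Named were the members, called genes of each list (or, where fewer than 2 were called, its 2 most abundant genes), the leading markers of other cells and the 5 most alike genes. Some genes under this rule are not reported here. Hgf, Mmp2, Col1a1, Col5a1, Col5a2, Ctgf, Tnc, Postn, Tgfb1, Fbln1, Eln, Clec3b, Mfap5 and Pi16 were named after their values were seen. No 2 libraries held identical counts. Alternatives were DESeq2 1.42.0, library totals, no filter, limma 3.58.1 on log2(TPM + 1), a replicate block, each library left out and a heart muscle term. The last was chosen after seeing the data.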

Additional observations from a re-analysis of the deposited data

How the results depend on the processing

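Of the 10 genes, 4 were called in the edgeR fit with all libraries, and 6 with DESeq2 or without a filter. The number was 2 with library totals, 2 with limma on log2(TPM + 1), 2 with the heart muscle term and 2 to 4 with 1 library left out. Lum and Pdgfra were called in all 11 alternatives other than the heart muscle term, whose genotype difference rests on 1 Dicer LKO library, with log2 fold changes of 1.68 to 2.42 for Lum and 0.88 to 1.45 for Pdgfra. Over all genes, 185 were called with all libraries. The number was 1160 with DESeq2 (489 higher, 671 lower), 422 without a filter, 103 with library totals, 94 with limma on TPM, 43 with the heart muscle term and 23 to 389 with 1 library left out. Library totals moved the median of all genes to -0.13, from which the members' values are to be read. Values that changed sign, none of them called, were Reln (-0.12 to 0.12 with 1 library left out) at 0.12 without Dicer LKO replicate 2 and at 0.08 without control replicate 1, Des (-2.83 to 0.29 with 1 library left out) at 0.29 without control replicate 3, and Lrat at -0.20 with the heart muscle term. The cause of these changes was not tested. The activated minus quiescent difference was 0.57 on log2(TPM + 1) and 1.33 without Acta2. Deviations from the group mean correlated across genes at 0.091, 0.076 and -0.082 for samples with the same replicate number. Pairs with unlike numbers ran from -0.149 to 0.099, a range that holds those values. In the fit with a replicate block, 3 of the 10 genes and 245 of all genes were called, and Cygb was the member lost (adjusted p = 0.0742). For scores over the members, pairing by replicate number cannot change the mean difference, because each number holds 1 library of each group. That difference was 0.92 for the activated minus quiescent score and 47.2 TPM for the sum of the 10 genes. It was -1.26 for Acta2 and Des minus the other members. The block moved Des to -1.08, and DESeq2 gave no adjusted p for Des. Depth limits Acta2 most, with 8 to 39 counts per library.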

Other observations

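Among regulators of the stellate lineage, the transcription factor gene Tcf21 was at 4.57 ± 0.62 CPM in Dicer LKO and 2.41 ± 0.33 CPM in controls (SD, n = 3 each, log2 fold change 0.92, adjusted p = 0.0841, edgeR), and Hand2 at 5.35 ± 0.27 CPM in Dicer LKO and 2.81 ± 0.56 CPM in controls (0.93, adjusted p = 0.0797). Neither was called and neither overlapped between the groups, where 12.7% of all genes tested lay wholly above the controls. Lhx2 and Pparg, other transcription factor genes among the listed stellate cell genes, did overlap. Lhx2 was at 1.68 ± 0.03 CPM in Dicer LKO and 2.38 ± 1.15 CPM in controls. Pparg had a log2 fold change of 0.14 (adjusted p = 0.727, edgeR). Tcf21 and Hand2 were chosen after their values were seen, and Lhx2 and Pparg were added for comparison.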
